A study of Mus musculus with 16 samples.

Results

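Transcripts of the SUMO pathway were examined in WT and Psma7 cKO mouse oocytes and eggs. The group comprised 9 genes picked by name, with earlier results of these data known: the modifiers Sumo2 and Sumo3, the E1 subunits Sae1 and Uba2, the E3 ligase Pias1, and the SUMO proteases Senp1, Senp2, Senp3 and Senp6. Each of the 9 names had a single entry among the 28618 entries of the expression table. Poly(A) RNA of 16 pools of cells was sequenced after Smart-seq2 amplification, with 4 libraries in each of 4 groups: WT GV oocytes, cKO GV oocytes, WT MII eggs and cKO MII eggs. GV oocytes are arrested in meiotic prophase with an intact nucleus, and MII eggs normally have matured, been ovulated and stopped at the second metaphase. The paper reports that some ovulated cKO oocytes stayed at the GV stage, lacked a first polar body or were arrested at telophase I. Egg pools are named here by their label, so the share of cKO cells at the second metaphase is not known. The WT females are labelled wildtype and the cKO females Zp3-Cre; Psma7 flox/flox on the labels. Psma7 encodes a subunit of the 20S core of the proteasome, and Zp3-Cre deletes it in growing oocytes only, so follicular cells keep the gene. The cKO libraries thus differ from the WT libraries by the floxed alleles and by Cre together, and the labels describe no group that carries Cre or the floxed alleles alone. All females were 3 to 4 weeks old and had received 5 IU PMSG. GV oocytes were collected 44 h after PMSG, or hCG was injected at that time and eggs were collected 14 to 16 h after hCG. Eggs alone were treated with hyaluronidase (0.3%), so this treatment and the stage cannot be told apart. Each pool held 5 cells according to the labels.

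SUMO is a small protein that is joined to lysines of other proteins, much as ubiquitin is. It is activated by the E1 heterodimer of SAE1 and UBA2 and placed on substrates with the help of E3 ligases such as PIAS1. SENP proteases mature the SUMO precursors and remove SUMO from substrates, and SENP6 acts mainly on chains of SUMO2 and SUMO3. SUMO2 and SUMO3 are near-identical proteins that form chains. In oocytes the pathway is known for roles in chromosome organisation, spindle assembly and transcriptional silencing. Fully grown oocytes hardly transcribe during maturation, when many maternal mRNAs decay and others gain or lose poly(A) tail.

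Levels are given in FPKM, the fragments of a transcript divided by its length and by the mapped fragments of its library, as the authors deposited them. An FPKM value is a share of a library, so fewer molecules per cell and a larger amount of other RNA cannot be told apart. Oligo-dT priming also means that a change of poly(A) tail length and a change of abundance cannot be told apart. The libraries held 10.5 to 15.7 M fragments, and every member rested on at least 34 fragments in every library. Psma7 was checked first: at GV it read 142 to 201 FPKM in WT and 11.1 to 18.0 in cKO, and at MII 97.7 to 172 in WT and 13.6 to 59.9 in cKO, so the genotypes did not overlap. All 10 oocyte markers (Zp1, Zp2, Zp3, Gdf9, Bmp15, Mos, Nlrp5, Zar1, Ooep and H1foo) were present and summed to 9070 to 17248 FPKM per library. The 10 cumulus and granulosa markers summed to 7.72 to 15.3 FPKM, most of it Cyp19a1. Fshr averaged 0.482 FPKM in WT GV, 0.634 in cKO GV, 0.0232 in WT MII and 0 in cKO MII libraries. In the same order Inha averaged 0.146, 0.435, 0.0105 and 0.0460, and Ptgs2 0.534, 0.489, 0.328 and 0.204. The remaining markers averaged 0.0906 FPKM or less in every group. The sum was 7.72 to 10.6 in WT GV, 10.7 to 12.0 in cKO GV, 12.9 to 15.0 in WT MII and 12.6 to 15.3 in cKO MII libraries, and its part in the differences below was not tested. Replicates are pools, and nothing in the labels says which females they came from, so the p-values describe the spread between these pools.

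Because the SUMO2 and SUMO3 messages resemble each other, their sequences are given first, to show how far reads can tell them apart. The coding sequences of Sumo2 (288 bases, gene at chr11:115523102-115536276, minus strand, GRCm38) and Sumo3 (333 bases, chr10:77606097-77618331, plus strand) matched at 233 of 285 aligned bases, or 81.8%. A stretch of the coding sequence of each, read 5′ to 3′ from the GENCODE M21 transcripts and starting at coding base 43 in Sumo2 and 40 in Sumo3, is shown with the bases that differ in capitals.
Sumo2: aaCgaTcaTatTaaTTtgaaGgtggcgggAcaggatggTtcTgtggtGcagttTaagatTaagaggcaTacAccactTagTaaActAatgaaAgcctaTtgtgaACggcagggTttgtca
Sumo3: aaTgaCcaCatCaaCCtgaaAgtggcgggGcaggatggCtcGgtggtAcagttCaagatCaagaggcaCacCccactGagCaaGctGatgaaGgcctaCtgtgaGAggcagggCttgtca
These 120 bases differ at 24 positions, and over the whole transcripts the longest run shared without a difference was 17 bases. Processed copies of SUMO genes elsewhere in the genome were not compared.

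In WT GV oocytes Sumo2 stood at 200.3, 199.9, 269 and 213 FPKM, which is 221 ± 32.8 (SD, n = 4) and the highest level among the members. Sumo3 followed at 98.2 ± 9.69, Pias1 at 92.0 ± 5.47 and Uba2 at 83.6 ± 12.1 FPKM, and the ranges of these neighbours in the order overlapped. Senp1 (21.3 ± 1.00) and Senp6 (20.5 ± 3.60) overlapped as well. Sae1 was lower at 8.23 ± 1.42, Senp3 at 5.09 ± 0.561 and Senp2 at 2.49 ± 0.786 FPKM, and here no neighbours overlapped. The pair of E1 subunits, which act as a heterodimer, therefore differed in transcript level, and the Sae1 to Uba2 ratio was 0.0982 ± 0.00649. In cKO GV oocytes Sumo2 was again the highest (200.4 ± 23.4) and Senp2 the lowest member (3.99 ± 0.323), with Uba2 (89.7 ± 3.52) above Pias1 (82.0 ± 2.02). Of all entries averaging at least 1 FPKM in WT GV oocytes, 97.3% were below Sumo2 and 21.6% below Senp2. Order and ratios between genes rest on the transcript lengths behind the FPKM, recovered as 998 bases for Sumo2 and 3221 for Sumo3. The GENCODE M21 transcripts have 1051 and 2630 bases. In fragments, Sumo3 (3720 to 5109 per WT GV library) exceeded Sumo2 (2390 to 3699).

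**Figure D1:**
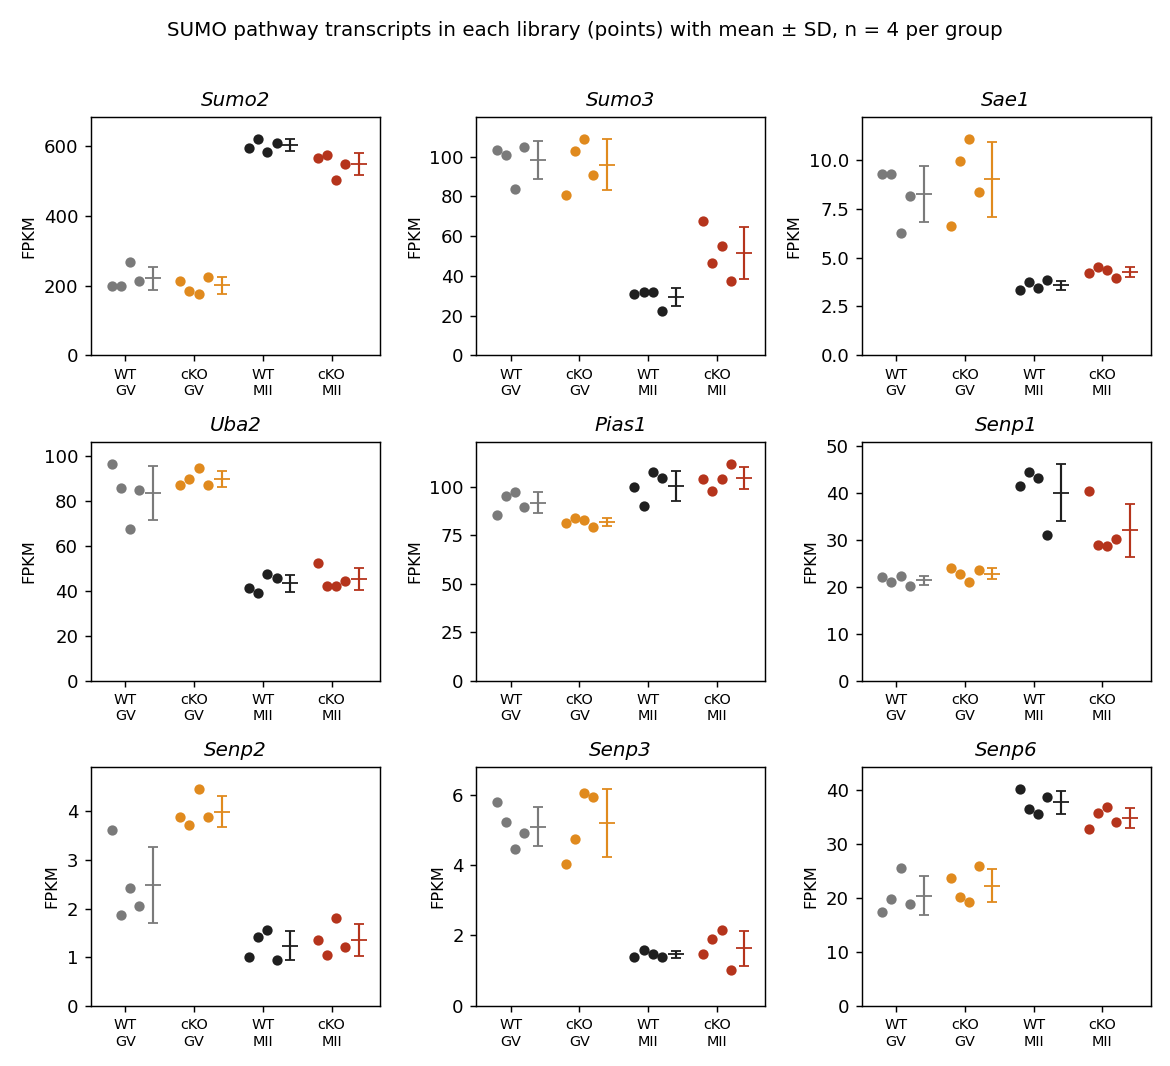
FPKM (vertical axis, starting at 0) of the 9 members in each of the 16 libraries. Points are libraries in the order of their replicate number, and the line with whiskers beside them is the mean ± SD (n = 4). Sumo2 lies at 177 to 269 in GV oocytes and at 503 to 621 in eggs, and Sumo3 is the member whose WT and cKO eggs lie furthest apart relative to its level.

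The first question was how the pathway changes between GV oocyte and egg. In WT, Sumo2, Senp1 and Senp6 rose and Sumo3, Sae1, Uba2, Senp2 and Senp3 fell, so 8 of 9 members passed the threshold, a Benjamini-Hochberg adjusted p under 0.05 by limma over all entries tested. Among 10475 entries tested in this comparison, 26.1% rose and 52.4% fell, so 3 of 9 rising and 5 of 9 falling is close to the background. The median log2 fold change was −0.94 over the members and −0.44 over all entries. The members' WT groups at GV and MII did not overlap for 8 of 9, where 72.7% of all entries did not.

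Sumo2 went up and Sumo3 went down. Sumo2 read 596, 621, 584 and 609 FPKM in WT eggs, or 603 ± 16.4, a log2 fold change of 1.46 (SE 0.10, limma adjusted p = 1.87e-07). The lowest WT egg library (584) lay far above the highest WT GV library (269). Sumo3 read 103, 101, 83.8 and 105 FPKM in WT GV oocytes and 31.1, 32.0, 31.8 and 22.3 in WT eggs, a log2 fold change of −1.75 (SE 0.13, limma adjusted p = 3.41e-07). The GV and egg libraries did not overlap for either modifier. Together the transcripts of both summed to 319 ± 23.8 FPKM in WT GV oocytes and 632 ± 15.9 in WT eggs, and Sumo2 made up 68.9% ± 4.89 of the sum before and 95.4% ± 0.745 after maturation. These sums and shares depend on the transcript lengths behind the FPKM. The Sumo2 to Sumo3 ratio within a library, which no scaling between libraries can alter, went from 1.94, 1.98, 3.21 and 2.04 to 19.1, 19.4, 18.4 and 27.3. That is a 9.29-fold higher ratio (log2 difference 3.21, two-sided exact permutation p = 0.0286, the smallest that 4 against 4 libraries can give, and 0.0762 adjusted over the 8 ratio tests). With fewer than 5 of the 8 tests at that smallest p, no adjusted value could fall under 0.05.

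Both E1 subunits fell. Sae1 read 9.27, 9.25, 6.26 and 8.15 FPKM in WT GV oocytes and 3.35, 3.74, 3.43 and 3.83 in WT eggs, a log2 fold change of −1.18 (SE 0.14, limma adjusted p = 2.06e-05). Uba2, the larger and catalytic subunit, read 96.5, 85.9, 67.3 and 84.8 before and 41.2, 39.1, 47.4 and 45.6 after maturation, a log2 fold change of −0.94 (SE 0.11, limma adjusted p = 2.04e-05). Neither gene's egg libraries reached the lowest of its GV libraries. The Sae1 to Uba2 ratio was 0.0833 ± 0.00969 in WT eggs, and its log2 difference from GV oocytes, −0.24, had an exact permutation p of 0.0571 (0.114 adjusted).

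The SUMO proteases split into a rising and a falling pair. Senp1, which matures and removes SUMO, read 22.1, 20.96, 22.2 and 20.1 FPKM in WT GV oocytes and 41.5, 44.4, 43.1 and 31.0 in WT eggs (log2 fold change 0.89, SE 0.12, limma adjusted p = 3.55e-05). Senp6, the protease of SUMO2 and SUMO3 chains, read 17.4, 19.9, 25.6 and 19.0 before and 40.2, 36.5, 35.5 and 38.7 after maturation (log2 fold change 0.90, SE 0.12, limma adjusted p = 3.91e-05). In both genes every egg library lay above every GV library. Senp3, a nucleolar protease, fell from 5.79, 5.22, 4.46 and 4.91 FPKM to 1.39, 1.58, 1.48 and 1.39 (log2 fold change −1.80, SE 0.13, limma adjusted p = 2.57e-07). Senp2, which is associated with nuclear pores, fell from 3.61, 1.86, 2.42 and 2.05 FPKM to 1.01, 1.42, 1.57 and 0.948 (log2 fold change −0.97, SE 0.23, limma adjusted p = 0.00250). Both falling proteases rest on few fragments in WT eggs, 44 to 59 for Senp3 and 58 to 104 for Senp2, and the value below 1 FPKM was set to 1 for the fold change.

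Pias1 was the member with the smallest stage difference in WT. It read 85.4, 95.6, 97.3 and 89.7 FPKM in GV oocytes and 99.99, 90.2, 108 and 104 in eggs, and the libraries overlapped (log2 fold change 0.13, 95% interval −0.05 to 0.31, limma adjusted p = 0.171). With libraries rescaled by the median ratio of expressed entries, Pias1 passed the threshold (log2 fold change 0.36, limma adjusted p = 0.00433). That rescaling used factors of 1.03 to 1.11 for GV and 0.901 to 0.997 for egg libraries and moved the median of all entries from −0.44 to −0.22 in WT and from −0.42 to −0.23 in cKO, and no member changed direction between stages.

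In cKO, maturation went with the same direction in each of the 9 members as in WT, and all 9 passed the threshold: 4 rose, against 23.0% of all 10748 entries tested, and 5 fell, against 51.0%. The cKO GV and MII libraries did not overlap for 9 of 9 members, where 68.6% of all entries did not. Sumo2 rose by 1.46 on the log2 scale (SE 0.10, limma adjusted p = 2.85e-06), from 200.4 ± 23.4 to 548 ± 31.5 FPKM. Sumo3 fell by 0.92 on the log2 scale (SE 0.18, limma adjusted p = 0.00127), from 80.4, 103, 109 and 90.8 FPKM to 67.7, 46.3, 54.8 and 37.4. Sae1 read 6.63, 9.91, 11.1 and 8.34 FPKM in cKO GV oocytes and 4.22, 4.53, 4.38 and 3.93 in cKO eggs, and Uba2 read 87.1, 89.8, 94.6 and 87.2 before and 52.5, 42.1, 42.2 and 44.3 after maturation. Both E1 subunits thus fell again, with log2 fold changes of −1.05 (SE 0.16) and −0.99 (SE 0.09). Pias1 rose from 82.0 ± 2.02 to 105 ± 5.68 FPKM (log2 fold change 0.35, SE 0.07, limma adjusted p = 0.00168). Among the proteases, Senp1 rose by 0.48 (SE 0.12) and Senp6 by 0.65 (SE 0.11) on the log2 scale, and Senp2 and Senp3 fell, with log2 fold changes of −1.59 (SE 0.17) and −1.71 (SE 0.25). In cKO the ratio of Sumo2 to Sumo3 went from 2.14 ± 0.510 to 11.2 ± 2.95, 5.19-fold higher (exact permutation p = 0.0286, 0.0762 adjusted).

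**Figure D2:**
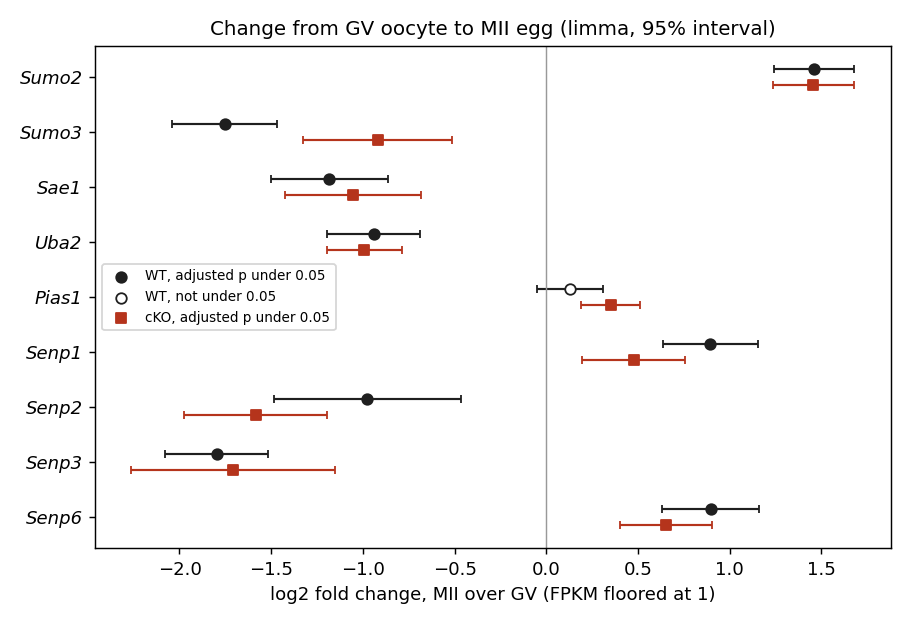
Log2 fold change from GV oocyte to MII egg (horizontal axis) of each member in WT (circles) and cKO (squares), with 95% intervals from limma. Filled symbols have an adjusted p under 0.05, and Pias1 in WT is the open one. Sumo3 changed by −1.75 in WT and −0.92 in cKO.

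Whether the change with maturation differed between genotypes was tested as an interaction over all 16 libraries. No member passed (limma adjusted p of 0.0824 to 0.991 over 9 members), where 1.07% of 10615 entries passed with a higher and 0.188% with a lower value in cKO. At an unadjusted p under 0.05 there were 3 members, Sumo3 and Pias1 with a higher and Senp1 with a lower value, where 12.7% of all entries were higher and 5.03% lower at that threshold, and a voom fit on fragments also called 0. Sumo3 had the largest difference, 0.84 on the log2 scale (SE 0.23, limma adjusted p = 0.0824). It passed without cKO egg library 2 (adjusted p = 0.0477) or without cKO egg library 4 (adjusted p = 0.0423), and in no other of the 16 fits that left out 1 library. Over all entries, 605 were called higher and 46 lower without cKO egg library 2, against 114 and 20 with all 16 libraries. Without cKO egg library 4 the counts were 129 and 16. Senp2 had a difference of −0.61 with a 95% interval of −1.25 to 0.03.

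The second question was whether the pathway differs between WT and cKO oocytes. In GV oocytes no member was called by limma (adjusted p of 0.203 to 0.983), and a voom fit on fragments also called 0. Among 11062 entries tested, 0.0994% were called higher and 0.0181% lower in cKO (11 and 2 entries, or 4 and 2 with rescaled libraries). The members' median log2 fold change was 0.09, and that of all entries 0.04. At an unadjusted p under 0.05 there was 1 member, Senp2, higher in cKO, where 7.62% of all entries were higher and 3.06% lower. It read 3.61, 1.86, 2.42 and 2.05 FPKM in WT and 3.89, 3.72, 4.46 and 3.89 in cKO GV oocytes (log2 fold change 0.73, SE 0.20, limma adjusted p = 0.203). All cKO libraries lay above all WT libraries, and WT library 1 came close to them. Leaving out each library in turn gave adjusted p-values of 0.0638 to 0.402. Pias1 was the other member without overlap, with 85.4, 95.6, 97.3 and 89.7 FPKM in WT and 81.5, 83.9, 83.2 and 79.3 in cKO (log2 fold change −0.16, limma adjusted p = 0.493). These 2 of 9 members compare with 6.67% of all entries whose genotypes did not overlap. The 95% intervals of the remaining 7 members lay between −0.40 and 0.52 on the log2 scale. The Sumo2 to Sumo3 ratio (log2 difference −0.10, exact permutation p = 0.771) and the Sae1 to Uba2 ratio (0.01, exact permutation p = 1) differed by less than the spread between libraries.

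In eggs, Sumo3 was higher in cKO, and it was the only 1 of the 9 members called, where 6.53% of 9492 entries were called higher and 1.49% lower (620 and 141 entries, or 555 and 229 with rescaled libraries). WT eggs read 31.1, 32.0, 31.8 and 22.3 FPKM, which is 29.3 ± 4.66. The cKO eggs read 67.7, 46.3, 54.8 and 37.4, which is 51.5 ± 12.9. Every cKO egg library lay above every WT egg library, with 37.4 against 32.0 FPKM as the nearest pair, and every cKO egg library lay below the lowest WT GV value of 83.8. The log2 fold change was 0.80 (SE 0.19, 95% interval 0.37 to 1.22, limma adjusted p = 0.0395), a ratio of means of 1.76. The call was close to the threshold: the adjusted p ran from 0.0342 to 0.101 over the fits without 1 library, and it was lost in 6 of those 8 fits, when any 1 of the 4 WT egg libraries was left out (0.101, 0.0720, 0.0805 and 0.0820) and without cKO egg library 1 (0.0630) or 3 (0.0735). Calls over all entries fell in these 6 fits as well, to 12, 109, 3 and 31 higher without WT egg libraries 1 to 4. Without cKO egg libraries 1 and 3 they fell to 166 and 287 higher. The log2 fold change of Sumo3 was 0.65 to 0.84 in these 6 fits. By more than 3-fold between group means, 0 of 9 members differed between WT and cKO at either stage, where 0.0633% of the entries tested in GV oocytes and 1.78% of those tested in eggs did.

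**Figure D3:**
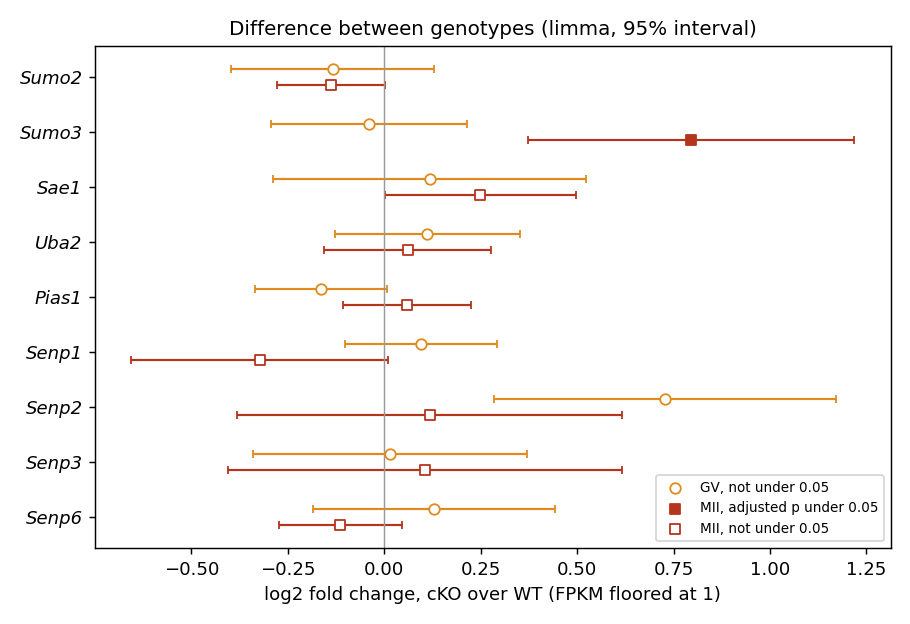
Log2 fold change of cKO over WT (horizontal axis) of each member in GV oocytes (circles) and MII eggs (squares), with 95% intervals from limma. Only Sumo3 in eggs (0.80) is filled, for an adjusted p under 0.05, while Senp2 in GV oocytes (0.73) has an interval above 0 but an adjusted p of 0.203.

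In eggs the ratio of Sumo2 to Sumo3 was 19.1, 19.4, 18.4 and 27.3 in WT and 8.34, 12.4, 9.19 and 14.7 in cKO libraries. The genotypes did not overlap, and the ratio in cKO was 0.523 of that in WT (log2 difference −0.93, exact permutation p = 0.0286, 0.0762 adjusted). Sumo2 made up 91.4% ± 2.02 of the summed Sumo2 and Sumo3 FPKM in cKO eggs and 95.4% ± 0.745 in WT eggs. Sumo2 itself read 596, 621, 584 and 609 FPKM in WT and 565, 574, 503 and 550 in cKO eggs, without overlap but not called (log2 fold change −0.14, SE 0.06, limma adjusted p = 0.172).

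**Figure D4:**
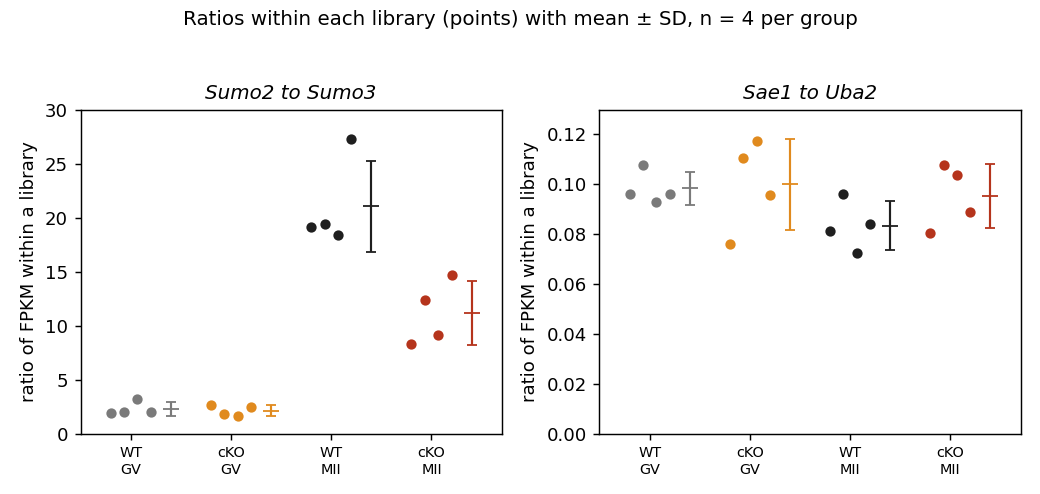
Ratio of FPKM within each library (vertical axes, starting at 0) for Sumo2 to Sumo3 and for Sae1 to Uba2, by group. Points are libraries and the line with whiskers is the mean ± SD (n = 4). The Sumo2 to Sumo3 ratio is near 2 in both GV groups, 18.4 to 27.3 in WT eggs and 8.34 to 14.7 in cKO eggs, while the Sae1 to Uba2 ratio overlaps between all 4 groups.

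Sae1 was the third member without overlap in eggs, at 3.35, 3.74, 3.43 and 3.83 FPKM in WT and 4.22, 4.53, 4.38 and 3.93 in cKO (log2 fold change 0.25, SE 0.11, limma adjusted p = 0.169). The 3 of 9 members without overlap compare with 20.7% of all entries. Uba2 overlapped between genotypes at 43.3 ± 3.84 FPKM in WT and 45.3 ± 4.92 in cKO, and the Sae1 to Uba2 ratio had an exact permutation p of 0.2. Senp1 read 41.5, 44.4, 43.1 and 31.0 FPKM in WT and 40.4, 28.8, 28.7 and 30.0 in cKO eggs, so 1 library of each genotype lay among those of the other (log2 fold change −0.32, SE 0.15, limma adjusted p = 0.180). Senp6 read 40.2, 36.5, 35.5 and 38.7 FPKM in WT and 32.7, 35.7, 36.9 and 34.1 in cKO eggs, an overlap in which the highest value was WT and the lowest cKO (log2 fold change −0.11, SE 0.07). Pias1 overlapped too, at 101 ± 7.62 FPKM in WT and 105 ± 5.68 in cKO. The low proteases were close to the floor of 1 FPKM: Senp2 read 1.24 ± 0.303 in WT and 1.36 ± 0.328 in cKO, and Senp3 1.46 ± 0.0881 and 1.63 ± 0.501. Senp3 spread more in cKO eggs, from 1.01 to 2.15 FPKM on 34 to 74 fragments, than in WT eggs, from 1.39 to 1.58 FPKM on 44 to 59 fragments, and this difference in spread was not tested. The 95% intervals of the members not called lay between −0.66 and 0.62 on the log2 scale. The members' median log2 fold change was 0.06, and that of all entries 0.07.

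The cKO egg libraries as a whole lay between the WT GV and WT MII libraries. On a scale where the WT GV mean is 0 and the WT MII mean is 1, computed over all entries of at least 1 FPKM without the members, WT eggs lay at 0.981 to 1.02 and cKO egg libraries 1 to 4 at 0.817, 0.909, 0.604 and 0.785. On the same scale Sumo3 alone lay at 0.302, 0.615, 0.476 and 0.791 in these libraries. In 3 of 4 cKO egg libraries Sumo3 was nearer to the GV level than the library as a whole, and in library 4 the values were 0.791 and 0.785. Sumo2 lay at 0.937, 0.953, 0.823 and 0.909, nearer to the egg level than the library in all 4. Senp1 lay at 1.03, 0.483, 0.482 and 0.553, so it too was nearer to the GV level than the library in libraries 2 to 4. The remaining members were so in fewer libraries. How many of all entries were so was not computed, and the Sumo3 positions rest on the same values as its difference between genotypes. The part of library position in the Sumo3 difference was not tested. Psma7 also varied between the cKO egg libraries, at 13.6, 50.3, 35.0 and 59.9 FPKM in libraries 1 to 4, so the library with the least Psma7 held the most Sumo3 (67.7 FPKM) and the one with the most Psma7 held the least (37.4 FPKM). The middle libraries 2 and 3 followed the same inverse order, with 46.3 and 54.8 FPKM of Sumo3. This order was picked out after the values were seen, and no correlation was computed over only 4 libraries.

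**Figure D5:**
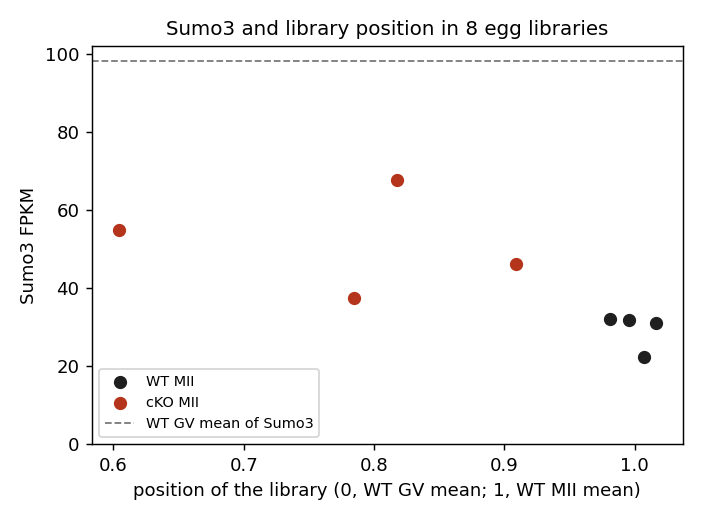
Sumo3 FPKM (vertical axis) against the position of each egg library between the WT GV mean (0) and the WT MII mean (1) over all other expressed entries (horizontal axis). The 4 WT eggs sit together near 1 at 22.3 to 32.0 FPKM, and the 4 cKO eggs sit between 0.604 and 0.909 at 37.4 to 67.7 FPKM, below the dashed line of the WT GV mean (98.2 FPKM).

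The rest of the pathway was described from a list of 20 further genes with 21 entries, mostly E3 ligases and their partners, other SUMO proteases and SUMO-targeted ubiquitin ligases. None was called between genotypes by limma: 0 of 17 tested in GV oocytes, 0 of 15 in eggs and 0 of 17 in the interaction. Of all entries, 0.0994% were called higher and 0.0181% lower in GV oocytes. In eggs these shares were 6.53% and 1.49%, and in the interaction 1.07% and 0.188%. At an unadjusted p under 0.05, 1 of 17 was higher in cKO GV oocytes, where 7.62% of all entries were higher and 3.06% lower. In eggs 1 was higher and 2 were lower of 15, where 20.6% of all entries were higher and 8.80% lower. In the interaction 1 of 17 was higher and 1 lower, where 12.7% and 5.03% of all entries were. From GV to MII, 7 rose and 7 fell among 17 tested in WT, where 26.1% and 52.4% of all entries did, and 6 rose and 7 fell among 16 in cKO, where 23.0% and 51.0% did. Among them Pml, Pias3 and 1 of the 2 entries of Desi2 averaged under 1 FPKM and were not tested in any comparison.

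Sequence features of the members were set beside those of other genes. The principal GENCODE M21 transcripts of the members had a median length of 2630 bases and a median 3′ UTR of 1091 bases, against 2878 and 934 over 8783 genes tested in WT that matched by name. The letters TTTTAT or TTTTAAT, forms of the cytoplasmic polyadenylation element that governs tail length in maturing oocytes, were searched on the mRNA strand alone in the last 100 bases of each transcript. They occurred in 2 of 9 members, Senp1 and Senp3, and in 20.0% of the 8783 genes. The 2 sites are printed because one lies in a transcript that rose and the other in one that fell, each with the element in capitals, beginning 60 and 70 bases from the transcript's end.
Senp1: gttttttttTTTTAATtgatttattt
Senp3: tcaaacttttTTTTATatatataaat
A match is no evidence that the element is used, and the annotated end may not be the end used in oocytes. The hexamer AATAAA or ATTAAA was within the last 40 bases in 7 of 9 members and in 77.0% of the 8783 genes. Senp1 and Senp2 had none there, while Senp3 had AATAAA beginning 22 bases from the end.

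Across the 16 libraries the members other than Pias1 fell into those higher in GV oocytes and those higher in eggs. Pias1 overlapped between the stages in WT. The entries most like 8 of the members, by Pearson's r of log2 FPKM over 16 libraries, were Gtf2a2 for Sumo2 (r = 0.997), Reep2 for Sae1 (0.988), Kctd3 for Uba2 (0.992), Hmgcll1 for Pias1 (0.903), Ggct for Senp1 (0.984), Cep19 for Senp2 (0.967), Lrpprc for Senp3 (0.984) and Rab12 for Senp6 (0.983). Such values are common: r was above 0.9 with 1664 entries for Sumo3 and 2759 for Uba2, but with only 1 for Pias1. The 16 points share stage, depth and genotype, and so these values are a description only.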

How the data were processed

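Samples were grouped by the genotype and stage of the labels and matched to table columns by name. Values are FPKM as the authors deposited them. TopHat2 2.1.1, Cufflinks 2.2.1 and build mm10 are named in the submitters' notes, and the annotation is not given in the sources used here. The depth of a library was taken as the total most often implied by low values of entries with 1 GENCODE M21 transcript. A length was then searched for each entry. All 28618 entries had a length at which their values were whole fragments (within 0.0001 fragments, per 1000 above 1000). With few values above 0 such a length is easily found. Pools held 5 cells per the labels and 10 per the methods. The table holds 0 ERCC entries, so the spike-in was not used.

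FPKM below 1 was set to 1, as in the study's methods, and entries with a mean of 1 FPKM or more in the libraries of a comparison entered a fit on the log2 scale with limma 3.58.1 (R 4.3.3, trended moderation, Benjamini-Hochberg over all entries). Fold changes of low genes are understated on this scale. Ratios were compared by two-sided exact permutation tests in Python 3.11.15. The exact permutation test was tried on simulated data. So was the main limma fit, for the genotype comparison in GV oocytes and the stage comparison in WT. The members, gene lists and tests were chosen with earlier results of these data known. The text names all members, other pathway genes called between genotypes, Psma7, and the best-correlated entry for each member. Some entries that this rule names are not reported here. The stage and genotype comparisons share libraries. Positions and transcripts are from GENCODE M21 (GRCm38).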

Additional observations from a re-analysis of the deposited data

Results flagged for a closer look

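In 44 groups of 4 libraries (9 members and 2 ratios in 4 groups), 4 had 1 library far from the other 3, by Dixon's test at the 95% level. Chance alone gives about 1 such group in 20. Sumo3 in WT eggs was lowest in library 4, at 22.3 FPKM, with a gap of 0.910 of the range to the next value. The Sumo2 to Sumo3 ratio in WT eggs was highest in the same library, at 27.3. Without this library the Sumo3 difference between genotypes in eggs was 0.67 on the log2 scale (limma adjusted p = 0.0820). Senp1 in cKO eggs was highest in library 1, at 40.4 FPKM, against 28.7 to 30.0 in the other 3. The Sumo2 to Sumo3 ratio in WT GV oocytes was highest in library 3, at 3.21, against 1.94 to 2.04 in the other 3.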

How the results depend on the processing

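Of 194 alternative values of the counts of members called or over 3-fold and of the ratios, 10 moved and 11 changed sign. Among the calls, Sumo3 in eggs depended on the processing: the count of members called in eggs was 0 with no filter on low values (Sumo3 adjusted p = 0.126, a fit in which most entries have no residual variance, so its moderation is unreliable), 0 without the trend (0.0529), and 0 to 1 when 1 library was left out. Over all entries, 14 were called higher and 3 lower with no filter, and 415 and 86 without the trend. The main fit called 620 and 141. The call held with the replicate block (0.0401), with rescaling (0.0370), with all 16 libraries in one fit (0.00524) and with voom on fragments (0.0317), an alternative chosen after seeing the data. The interaction gave 0 to 1 members when 1 library was left out. Pias1 from GV to MII in WT passed only with rescaling (0.36). For single members 781 of 818 alternative values kept their direction and side of the threshold.

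The sign changes were all in values that were not called. With 1 FPKM added, the Sae1 to Uba2 ratio between genotypes in GV oocytes was −0.0041 and from GV to MII in cKO 0.071. With rescaling, the genotype difference of Senp3 in GV oocytes was −0.023, and those of Uba2 and Pias1 in eggs −0.0070 and −0.010. With voom, the interaction of Sumo2 was 0.00084. When 1 library was left out, the log2 Sumo2 to Sumo3 ratio between genotypes in GV oocytes ran from −0.21 to 0.078, and the Sae1 to Uba2 ratio from −0.077 to 0.13 there and from −0.18 to 0.023 from GV to MII in cKO. In the same way the genotype difference in GV oocytes ran from −0.064 to 0.13 for Senp3, −0.0078 to 0.26 for Sae1 and −0.11 to 0.042 for Sumo3, and that in eggs from −0.046 to 0.32 for Senp3, −0.031 to 0.24 for Senp2 and −0.012 to 0.11 for Uba2. The interaction ran from −0.062 to 0.30 for Senp3, −0.0066 to 0.26 for Sae1, −0.10 to 0.056 for Sumo2 and −0.12 to 0.050 for Uba2.

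Deviations of same-numbered libraries in different groups correlated at −0.50 to 0.29 over 24 pairs of libraries. Differently numbered libraries were not compared, so this cannot decide whether the replicate numbers mark a pairing. With the replicate block 0, 1, 8, 9 and 0 members were called in the 5 comparisons, as without it. Over all entries the block lowered the egg calls from 620 higher and 141 lower to 101 and 7. Interaction calls went from 114 and 20 to 53 and 7, and genotype calls in GV oocytes from 11 and 2 to 4 and 2. A paired exact test of the ratios cannot go below p = 0.125. Depth limits Senp2 and Senp3 most, with 34 to 113 fragments per egg library.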
